A study of Mus musculus with 29 samples.

Results

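Prox1 was followed in liver RNA-seq together with 7 genes for proteins with which Prox1 is known to act, namely the nuclear receptors Hnf4a, Nr5a2, Esrra and Rora and the corepressor subunits Hdac3, Kdm1a and Ncor1. The 8 genes were picked by symbol from a table of 54532 genes, of which 15603 had enough counts to test, and all 8 were among those tested. The study asked what loss of the SUMO site at the lysine changed in Prox1 K556R does to the liver of obese mice in the fasted and refed states. The 29 poly-A libraries are 8 fasted wild-type (WT), 7 fasted Prox1 K556R, 6 refed WT and 8 refed Prox1 K556R livers, each group spread over 2 batches (15 libraries in batch 1 and 14 in batch 2). Every mouse was male, had chow until 8 weeks of age and then a diet with 45% fat and 20% fructose for 18 weeks. Livers were taken at ZT 15 to 17, where ZT is time since lights on. The K556R allele is a conditional knock-in that Cre switched on in hepatocytes at 8 weeks of age, so the other cells of the liver keep the wild-type gene. Which Cre was used, and whether the WT mice, named Ctrl in the sample titles, carried the unrecombined allele or received Cre, was not stated in the labels. Nothing in the labels ties each library to its own animal, and a p-value here sets a difference against the scatter of libraries, which may be technical.

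Hepatocytes and lymphatic endothelium both make the homeobox protein Prox1. In hepatocytes it is known mainly as a corepressor: it binds HNF4A, LRH-1 (the product of Nr5a2), ERR-alpha (Esrra) and the ROR receptors on DNA and brings in the deacetylase HDAC3, the NCoR scaffold (Ncor1) and the demethylase LSD1 (Kdm1a). SUMO is a small protein that is joined to lysines of other proteins, often within a short motif in which the lysine follows a large hydrophobic residue and stands 2 places before an acidic one. Changes in SUMO joining or in the binding of these proteins to each other do not show in RNA counts.

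The changed codon and 2 motifs of receptor-binding form in Prox1 are shown first, since they place the allele within the message that was counted. Prox1 lies on the minus strand of mouse chromosome 1 (GRCm38, the same assembly as mm10, chr1:190118035-190170714). The codon changed in K556R, within a reading frame of 737 codons, is AAG, lysine, in coding exon 1 of 4 at chr1:190160579-190160581, and it is the same in the 3 coding transcripts of GENCODE M21. It follows an isoleucine codon and is followed by serine and glutamate codons, the order of the SUMO motif. The wild-type reference sequence around it (chr1:190160549-190160611, minus strand, that codon in capitals) reads
Prox1 K556R codon: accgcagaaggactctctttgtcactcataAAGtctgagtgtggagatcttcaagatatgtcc
A motif of leucine, any 2 residues and 2 more leucines is the form by which many cofactors dock on nuclear receptors, and the reading frame of Prox1 holds 2 of them. One spans codons 70 to 74 in coding exon 1 (chr1:190162013-190162051) and the other codons 731 to 735 in coding exon 4 (chr1:190123223-190123255), with the motif in capitals:
Prox1 codons 70 to 74: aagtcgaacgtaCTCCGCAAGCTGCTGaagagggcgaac
Prox1 codons 731 to 735: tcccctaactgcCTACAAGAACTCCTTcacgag
Both stand apart from the K556R codon, and a match of these letters does not show that the motif is used. Counts per gene do not tell the K556R message from the wild-type one, so the allele could not be checked in the libraries.

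The partner genes lie on other stretches of the same build: Hnf4a (ENSMUSG00000017950) at chr2:163506808-163572910 on the plus strand and Nr5a2 (ENSMUSG00000026398) at chr1:136842571-136960448 on the minus strand. Esrra (ENSMUSG00000024955) lies at chr19:6910977-6921813 on the minus strand and Rora (ENSMUSG00000032238) at chr9:68653786-69388246 on the plus strand. Of the corepressor genes, Kdm1a (ENSMUSG00000036940) lies at chr4:136550540-136602723 and Ncor1 (ENSMUSG00000018501) at chr11:62316426-62458541, both on the minus strand, and Hdac3 (ENSMUSG00000024454) is on chromosome 18. Prox1 is ENSMUSG00000010175, and the table holds 1 count per gene and library.

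All 8 genes were well covered, with 258 counts for Kdm1a in its lowest library as the smallest value and 17526 for Hnf4a as the largest. Libraries held 14385218 to 27278251 counts in all. Values below are in CPM, the count of a gene relative to the TMM-scaled total of its library, or CPM per kilobase of merged exon (CPM per kb) where genes are compared with each other. Per kilobase, Hnf4a stood highest at 124 CPM per kb (SD 14.7, n = 29) and its lowest library (105) was above the highest library of any other member. Prox1 followed at 20.1 CPM per kb (SD 2.72, n = 29), and its range overlapped that of Esrra alone. Hdac3 (11.2), Esrra (11.1), Ncor1 (10.2) and Nr5a2 (8.91 CPM per kb) came next, with ranges over libraries that overlapped each other. Rora stood at 5.72 CPM per kb, and its lowest library (4.17) was just above the highest library of Kdm1a (4.10), the least abundant member at 3.41 CPM per kb. Merged exon length is not the length of the transcript that liver uses, which limits how far these levels can be ordered.

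The tissue label was checked first. The 8 hepatocyte markers summed to 65737 to 116350 CPM over all libraries. Lymphatic endothelium, the other liver cell known to make Prox1, had 6 markers, of which 3 passed the filter on low counts, and Ccl21a, one of its defining genes, was at 0 in every library. Their sum had medians of 105 CPM in fasted WT, 106 in fasted K556R, 99.7 in refed WT and 105 in refed K556R livers, and it ranged from 50.9 to 124 CPM. Most of it was Reln (group medians 59.1 to 64.9 CPM), with Flt4 and Lyve1, which sinusoidal endothelium also makes, while Pdpn and Mmrn1 stayed below 1 CPM in every library. The sum is therefore no measure of lymphatic endothelium alone. In whole liver, fewer cells of a type and less RNA per cell cannot be told apart.

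**Figure D1:**
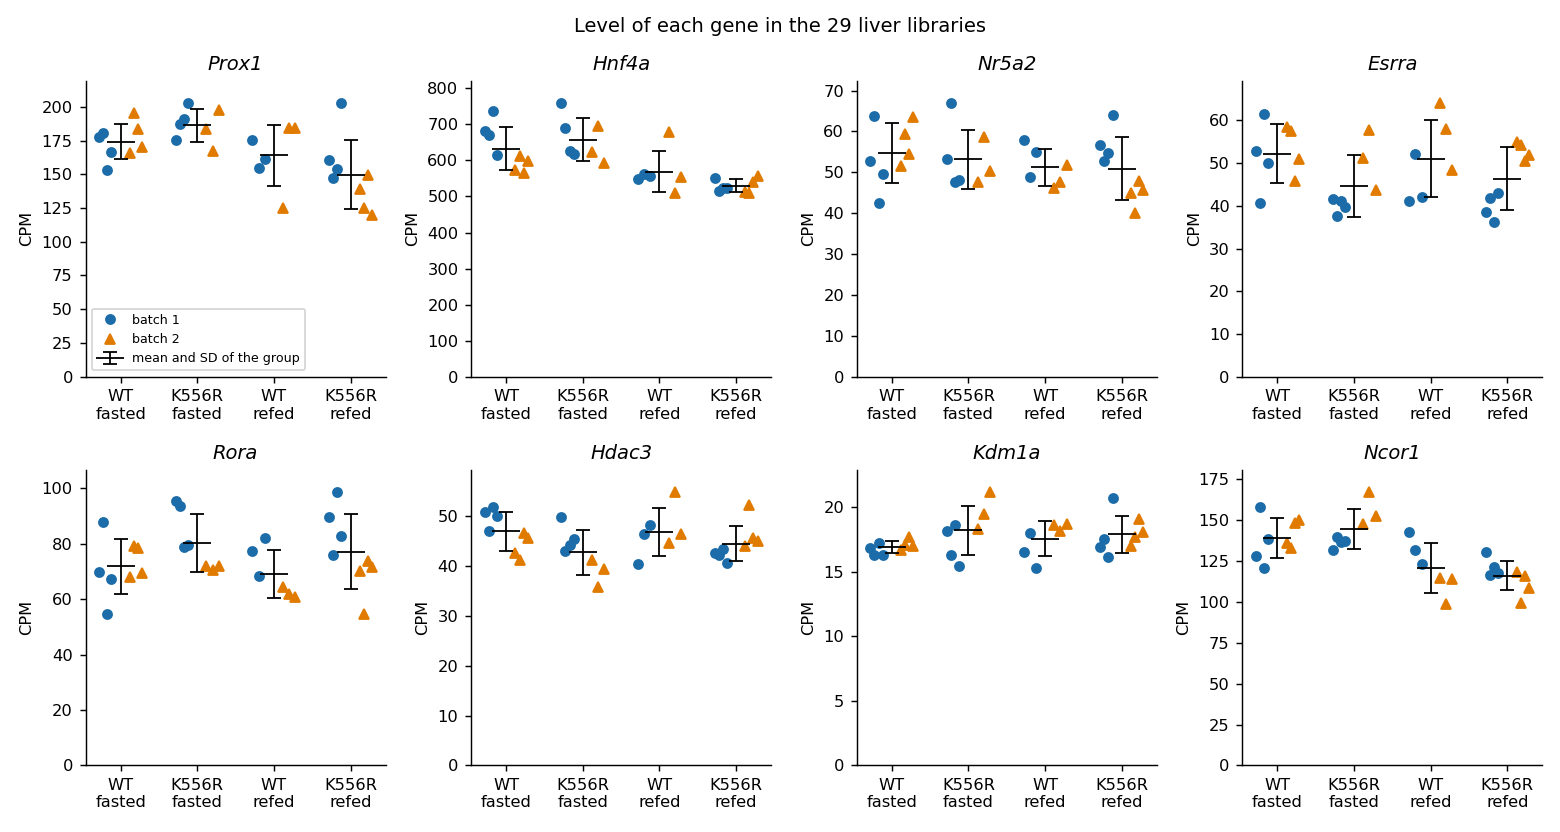
Level of each member in CPM (vertical axes from 0) in the 4 genotype-by-feeding groups. Each point is 1 library (circles batch 1, triangles batch 2) and the bars give the group mean and SD. Hnf4a and Ncor1 sit lower in refed than in fasted livers, and in the genotype comparison the groups of every member overlap.

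The first comparison asked whether the SUMO site mutation goes with other levels of the Prox1 message or of its partners' messages. None of the 8 was called between genotypes, where a call means an adjusted p below 0.05 in edgeR's quasi-likelihood test with Benjamini-Hochberg adjustment over all 15603 genes. Few genes were called at all: 0.103% in fasted livers, 0% in refed livers (0 genes by edgeR, 1319 at an unadjusted p below 0.05, and 44 by DESeq2) and 1.24% for the mean of both states. At an unadjusted p below 0.05 there were 1 member in fasted livers, 0 in refed livers and 3 (Esrra, Rora and Hdac3) for the mean, beside 9.48%, 8.45% and 14.7% of all genes. DESeq2 called 0 members in each, beside 0.571%, 0.282% and 2.73% of all genes. With that background a count of 0 among 8 members says little about them, and the intervals of the differences are given instead.

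Prox1 itself ran from 153 to 195 CPM (median 174) in the 8 fasted WT livers and from 167 to 203 (median 187) in the 7 fasted K556R livers. Refed, it ran from 125 to 184 CPM (median 168) in the 6 WT livers and from 120 to 203 (median 149) in the 8 K556R livers. The genotypes overlapped in both states. The difference K556R minus WT was 0.092 on the log2 scale when fasted (95% interval -0.086 to 0.27) and -0.14 when refed (-0.32 to 0.049). The mean over both states was -0.022 (-0.15 to 0.11), which bounds a common change of the Prox1 message. In batch 1 alone it was 0.091 and in batch 2 alone -0.13. An antisense gene, Prox1os, overlaps Prox1 over 133 exonic bases (1.59% of its exons) and had 3221 counts in all against 99804 for Prox1. The labels do not say whether counting used strand.

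Among the receptors, Esrra had the smallest p of the 8 between genotypes in fasted livers and for the mean of both states. ERR-alpha, its product, drives genes of mitochondrial respiration and fat oxidation. Esrra ran from 40.8 to 61.4 CPM (median 51.9) in fasted WT and from 37.5 to 57.7 (median 41.5) in fasted K556R livers. Refed, it ran from 41.1 to 64.1 CPM (median 50.3) in WT and from 36.1 to 54.9 (median 46.7) in K556R livers. The K556R livers were lower on average in both states, by -0.22 when fasted and -0.14 when refed on the log2 scale. The mean difference was -0.18 (SE 0.062, unadjusted p = 0.0069, edgeR adjusted p = 0.145), which did not pass, and the groups overlapped. DESeq2 gave -0.18 (adjusted p = 0.111). Trmt112 overlaps Esrra over 73 exonic bases. In batch 1 the 4 fasted K556R libraries had 41.5, 37.5, 41.1 and 39.6 CPM beside 52.8, 40.8, 61.4 and 49.9 in fasted WT. In batch 2 the 3 fasted K556R libraries had 51.2, 57.7 and 43.7 CPM beside 58.5, 57.6, 45.8 and 51.0 in fasted WT. The mean difference was -0.27 in batch 1 alone (edgeR adjusted p = 0.1495) and -0.077 in batch 2 alone (adjusted p = 0.786). The batches' difference in this value did not pass a test (0.18, SE 0.117, edgeR adjusted p = 0.663).

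Hnf4a, the gene of a master regulator of hepatocyte identity, differed by -0.024 between genotypes on the log2 scale (95% interval -0.12 to 0.069, mean of both states). Nr5a2, whose product LRH-1 controls bile acid and cholesterol genes, differed by -0.031 (-0.17 to 0.10). Nr5a2 had medians of 53.7 CPM (42.5 to 63.7) in fasted WT, 50.2 (47.6 to 67.0) in fasted K556R, 50.3 (46.2 to 57.8) in refed WT and 50.3 (40.1 to 64.0) in refed K556R livers, with all 4 groups overlapping. Rora, whose product activates clock and lipid genes at sites shared with the REV-ERB repressors, differed by 0.14 (0.0085 to 0.28; edgeR adjusted p = 0.306). Rora ran from 54.7 to 87.8 CPM in fasted WT and from 70.5 to 95.4 in fasted K556R livers, and from 60.6 to 82.1 CPM in refed WT and from 54.5 to 98.7 in refed K556R livers, with overlap in both states. Its mean difference was 0.25 in batch 1 alone (edgeR adjusted p = 0.245) and 0.042 in batch 2 alone (adjusted p = 0.875).

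Of the corepressor genes, Hdac3 differed by -0.11 (95% interval -0.21 to -0.0064, edgeR adjusted p = 0.306), Kdm1a by 0.071 (-0.016 to 0.16) and Ncor1 by -0.0014 (-0.11 to 0.10), all as the mean of both states on the log2 scale. Hdac3 encodes the deacetylase of the NCoR complex, and its fasted range was 41.2 to 51.8 CPM in WT and 35.8 to 49.9 CPM in K556R livers. Refed, it ran from 40.4 to 54.9 CPM in WT and from 40.6 to 52.2 CPM in K556R livers. Kdm1a, the LSD1 histone demethylase, stood at 16.9 CPM in fasted WT livers (SD 0.461, n = 8). It had 282 to 410 counts in these libraries. Counting error alone gives a spread of at least that size there, so this SD shows no special steadiness of the gene. The SD of Kdm1a in the other groups was 1.93 (fasted K556R), 1.36 (refed WT) and 1.42 CPM (refed K556R). A difference in spread between groups was not tested. In batch 2 the 3 fasted K556R livers (18.3, 19.5 and 21.2 CPM) were above the 4 fasted WT livers (16.7, 17.1, 17.7 and 17.0), and in batch 1 the 2 groups overlapped. No other member separated between genotypes within a batch, in either feeding state. How many of all genes separate in this way was not counted. The fasted difference of Kdm1a over both batches was not called (0.11, edgeR adjusted p = 0.565).

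**Figure D2:**
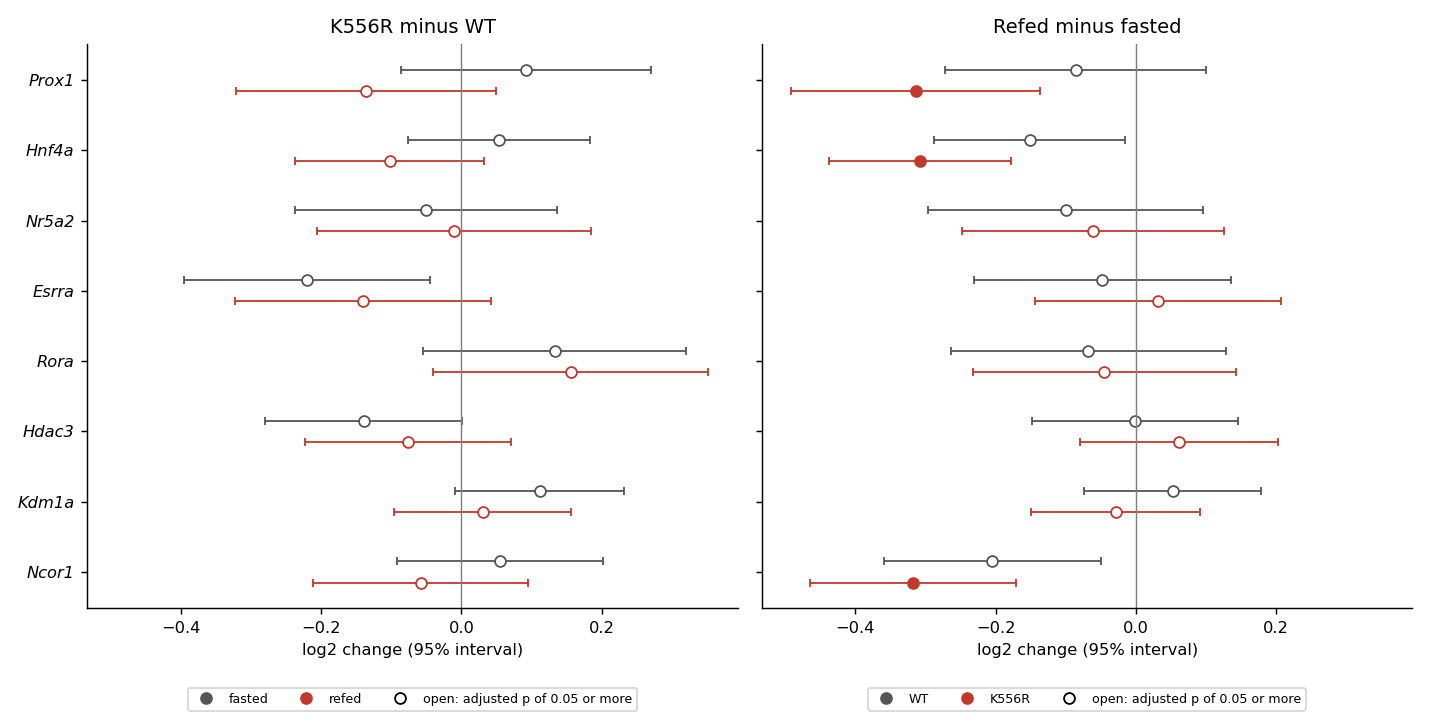
Log2 change of each member with its 95% interval, K556R minus WT at left (fasted and refed) and refed minus fasted at right (WT and K556R). Filled points passed an edgeR adjusted p of 0.05: these are Prox1, Hnf4a and Ncor1 on refeeding in K556R livers, and no member passed between genotypes.

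The second comparison was between feeding states. Of the 8 members 3 had less message in refed than in fasted livers. As the mean of both genotypes, Ncor1 fell by 0.26 (SE 0.052, edgeR adjusted p = 0.00032), Hnf4a by 0.23 (SE 0.046, adjusted p = 0.00034) and Prox1 by 0.20 (SE 0.063, adjusted p = 0.018) on the log2 scale. Across all tested genes 25.6% were called in this comparison, so 3 calls among 8 members are no result about the members as a set. Beside the rest of the table, 72.6%, 67.9% and 62.7% of tested genes had a smaller absolute change than Ncor1, Hnf4a and Prox1. The other 5 members were not called: Nr5a2 -0.081, Rora -0.056, Esrra -0.0082, Kdm1a 0.012 and Hdac3 0.030, with adjusted p-values of 0.413 to 0.944.

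In K556R livers alone the same 3 members were called: Hnf4a fell by 0.31 (SE 0.063, edgeR adjusted p = 0.00091), Prox1 by 0.31 (SE 0.087, adjusted p = 0.012) and Ncor1 by 0.32 (SE 0.072, adjusted p = 0.0022). Of all genes 15.4% were called there. In WT livers alone 0 of 8 members were called by edgeR and 0 by DESeq2, against 10.7% and 12.2% of all genes. The WT values were -0.20 for Ncor1 (SE 0.075, unadjusted p = 0.011, edgeR adjusted p = 0.082), -0.15 for Hnf4a (SE 0.066, unadjusted p = 0.030, adjusted p = 0.158) and -0.086 for Prox1 (SE 0.091, adjusted p = 0.634). Ncor1 and Hnf4a were the 2 members with an unadjusted p below 0.05 in WT livers, where 23.1% of all genes had one, so the count is near the background. The WT call depended on single libraries: Ncor1 passed at -0.23 (adjusted p = 0.046) without the third fasted WT library of batch 1 and at -0.25 (adjusted p = 0.039) without the first refed WT library of batch 1.

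That a gene passed in one genotype and missed in the other does not show that its response differed, and the difference was tested on its own. No member passed, and neither did any gene (0%; 0 by edgeR and 0 by DESeq2, with 440 genes at an unadjusted p below 0.05). The refeeding change in K556R less that in WT was -0.23 for Prox1 (95% interval -0.48 to 0.029, unadjusted p = 0.080), -0.16 for Hnf4a (-0.34 to 0.031, unadjusted p = 0.098) and -0.11 for Ncor1 (-0.33 to 0.099), each with an edgeR adjusted p of 0.99994. Over the 29 fits with 1 library left out, the value of Prox1 ran from -0.30 to -0.18. That of Hnf4a ran from -0.19 to -0.088 and that of Ncor1 from -0.17 to -0.065. Without the first refed WT library of batch 2 the value of Hnf4a was -0.088, and without the first refed WT library of batch 1 or the second fasted K556R library of batch 2 that of Ncor1 was -0.065 or -0.067. With all libraries the other 5 members lay between -0.081 (Kdm1a) and 0.080 (Esrra).

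In K556R livers the feeding states of Hnf4a were separate. Its 7 fasted K556R livers ran from 592 to 759 CPM (median 625) and its 8 refed K556R livers from 509 to 555 (median 524), without overlap. In WT the 8 fasted livers ran from 566 to 738 CPM (median 615) and the 6 refed livers from 510 to 678 (median 554), with overlap. In batch 1 the refed WT libraries had 547, 563 and 556.1 CPM and the fasted ones 681, 671, 738 and 616, with no overlap. In batch 2 the refed WT libraries had 678, 510 and 553 CPM and the fasted ones 573, 613, 566 and 599. The batch 2 library at 678 CPM is the one that overlaps the fasted WT livers from above their median. Without that library the WT change was -0.21 (SE 0.062, edgeR adjusted p = 0.024).

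Prox1 separated less. In K556R livers of batch 2 the 4 refed libraries had 139, 125, 150 and 120 CPM, all below the 3 fasted ones at 184, 167 and 197. In batch 1 the 4 refed K556R libraries had 160, 148, 154 and 203 CPM and the 4 fasted ones 175, 187, 191 and 203. The library at 203 CPM overlapped the fasted group, and the remaining 3 were below it. Without that library the K556R change of Prox1 was -0.39. In refed WT livers of batch 2 the values were 125, 184 and 184 CPM, and the library at 125 is the one with the high Hnf4a value.

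Ncor1 encodes the scaffold that holds HDAC3 and receptors together. It ran from 121 to 158 CPM (median 137) in fasted WT and from 132 to 167 (median 140) in fasted K556R livers. Refed, it ran from 98.7 to 143 CPM (median 119) in WT and from 99.5 to 130 (median 117) in K556R livers. In K556R livers the refed libraries were all below the fasted ones, within each batch as well as over both. In WT livers the groups overlapped over both batches and in batch 1, and did not overlap in batch 2.

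**Figure D3:**
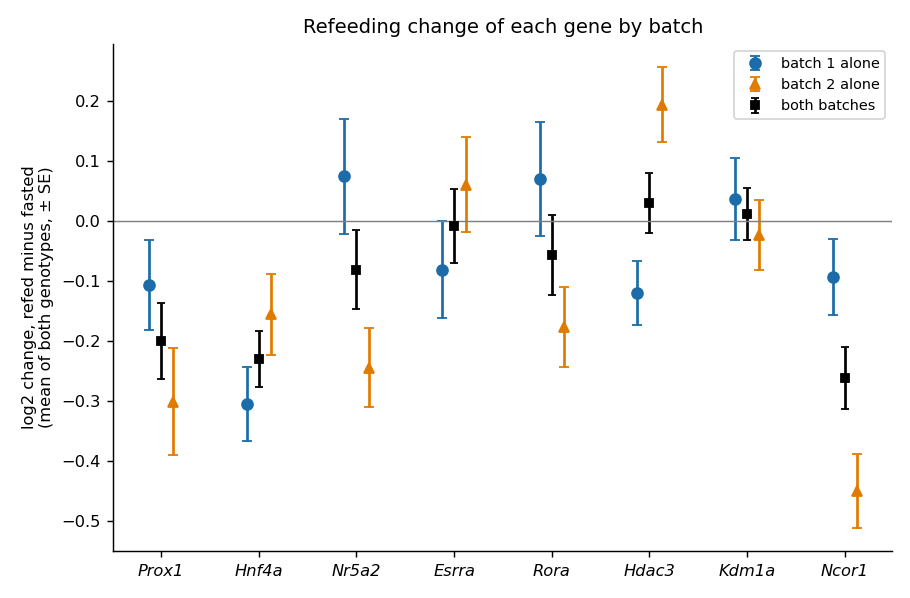
Refeeding change of each member (log2, refed minus fasted, mean of both genotypes, bars ± SE) fitted in batch 1 alone, batch 2 alone and both batches. Hnf4a lies below 0 in both batches, Ncor1 lies at -0.093 in batch 1 and -0.45 in batch 2, and Hdac3 lies on opposite sides of 0.

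The batches gave different sizes for several members. With batch 1 alone 1 of the 3 members was still called for the mean of both genotypes: Hnf4a at -0.30 (SE 0.062, edgeR adjusted p = 0.0025, 17.4% of all genes called). Ncor1 was at -0.093 (SE 0.063, adjusted p = 0.353) and Prox1 at -0.11 (SE 0.074, adjusted p = 0.370) there. With batch 2 alone Ncor1 fell by 0.45 (SE 0.061, adjusted p = 0.00020) and Prox1 by 0.30 (SE 0.090, adjusted p = 0.031), and Hnf4a was at -0.16 (SE 0.067, adjusted p = 0.127). Batch 2 alone also called Nr5a2 lower by -0.24 (SE 0.066, adjusted p = 0.019) and Hdac3 higher by 0.19 (SE 0.063, adjusted p = 0.044), with 18.2% of all genes called.

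Within K556R livers the fitted sizes also differed. In batch 1 alone (9.81% of all genes called) Hnf4a was called at -0.34 (edgeR adjusted p = 0.017), while Prox1 stood at -0.17 (adjusted p = 0.318) and Ncor1 at -0.16 (adjusted p = 0.289). In batch 2 alone (12.5% called) Ncor1 was at -0.51 (adjusted p = 0.0016), Prox1 at -0.48 (adjusted p = 0.023) and Hnf4a at -0.29 (adjusted p = 0.060). Within WT livers no member was called in batch 1 alone (5.54% of genes called), and Ncor1 was called in batch 2 alone at -0.38 (adjusted p = 0.025, 3.85% called).

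The batches' difference in the refeeding change was tested in a fit with 1 coefficient per group and batch, chosen after the data were seen. It passed for 2 members against 2.74% of all genes. Hdac3 changed by 0.34 more in batch 2 than in batch 1 (SE 0.080, edgeR adjusted p = 0.022), and Ncor1 by -0.33 (SE 0.085, adjusted p = 0.033). For Hnf4a (0.17, adjusted p = 0.286) and Prox1 (-0.17, adjusted p = 0.455) the difference did not pass. Within K556R livers no member passed this test by edgeR, against 3.54% of all genes: Hdac3 was at 0.38 (adjusted p = 0.054), Ncor1 at -0.33 (adjusted p = 0.114), Prox1 at -0.27 (adjusted p = 0.365) and Hnf4a at 0.080 (adjusted p = 0.753). Hdac3 and Ncor1 had an unadjusted p below 0.05 there. In K556R livers Hdac3 had 41.3, 35.8 and 39.3 CPM fasted and 43.9, 52.2, 45.7 and 45.0 refed in batch 2, with every refed library above every fasted one. In batch 1 it had 49.9, 43.1, 44.3 and 45.4 CPM fasted and 42.5, 42.3, 43.3 and 40.6 refed, and the fitted changes in K556R livers were 0.25 in batch 2 alone (adjusted p = 0.081) and -0.10 in batch 1 alone (adjusted p = 0.425).

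For 2 marker sums the feeding states separated in K556R livers of batch 2, and for the other marker lists they overlapped there. In K556R livers of batch 2 the cholangiocyte markers summed to 49.5 to 90.1 CPM fasted and 105.9 to 172 CPM refed, and the hepatocyte markers to 65737 to 73183 CPM fasted and 75619 to 89648 CPM refed, both without overlap. In K556R livers of batch 1, and in WT livers of both batches, the fasted and refed ranges of these 2 sums overlapped, as did those of the other lists. How many sums would separate by chance in groups of so few libraries was not tested. The part of these markers in the batch 2 changes of Prox1, Ncor1 and Hdac3 was not tested.

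Levels differed between the batches for 2 members. Esrra was higher in batch 2 by 0.28 (SE 0.062, edgeR adjusted p = 0.0012) and Rora lower by -0.20 (SE 0.066, adjusted p = 0.025), against 22.1% of all genes called. The other 6 members were not called, with differences of -0.10 (Nr5a2) to 0.094 (Kdm1a).

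Some of these values move with contrasts between classes of genes, taken from the same counts. For each library the median level of long genes less that of short genes, and of GC-rich less GC-poor genes, was taken on the log2 scale after the batch mean was removed. In batch 2 the length contrast was 0.117 to 0.125 in the 3 fasted K556R livers, -0.14 to 0.056 in the refed K556R livers, -0.035 to 0.089 in fasted WT and -0.19 to -0.045 in refed WT livers. Fasted libraries of batch 2 were thus richer in long genes than the refed ones within each genotype. In batch 1 the ranges of all 4 groups overlapped (-0.18 to 0.11). Ncor1, with 12811 exonic bases, followed this contrast over the 29 libraries (Pearson r = 0.753), as the plot of gene level against library contrast shows. Hdac3 ran the other way over the same libraries (r = -0.648). Its 4054 exonic bases lie between the cuts for short genes (2729.5) and long genes (6822), so it belongs to neither class.

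With the length contrast as a further term, added after the data were seen, Ncor1 was still called but its fall shrank to -0.20 in K556R livers (edgeR adjusted p = 0.0084) and -0.17 for the mean of both genotypes (adjusted p = 0.0017). Prox1 kept its call in K556R livers at -0.30 (adjusted p = 0.034) and lost it for the mean of both genotypes at -0.19 (adjusted p = 0.056). Hnf4a was at -0.33 in K556R livers (adjusted p = 0.00096) and -0.25 for the mean (adjusted p = 0.00040). With the GC contrast as the term, the mean genotype difference of Esrra was -0.079 and that of Rora 0.021. The third fasted WT library of batch 1 stood apart, with a GC contrast of 0.547, a Rora level of 54.7 CPM (the lowest of its group) and an Esrra level of 61.4 CPM (the highest). The part that RNA or library quality has in these differences was not tested.

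**Figure D4:**
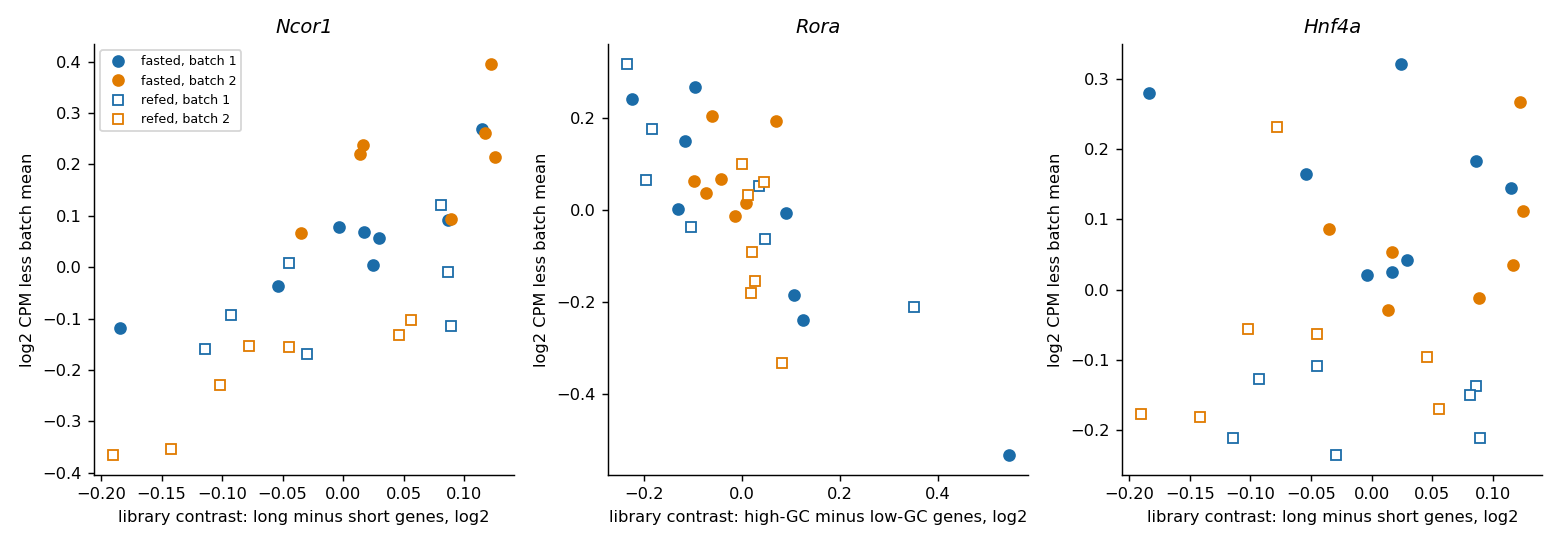
Level of Ncor1, Rora and Hnf4a in each of 29 libraries (log2 CPM less the batch mean) against the library's contrast between long and short genes (left and right) or GC-rich and GC-poor genes (middle), both in log2 units. Filled circles are fasted and open squares refed libraries, blue batch 1 and orange batch 2. Ncor1 and Rora run along the contrasts, the library at 0.547 being the lowest for Rora, while Hnf4a is split by feeding state at most values of the contrast.

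The partners of the corepressor members were described from lists of pathway genes. In the NCoR-HDAC3 complex the subunit genes did not move as a block on refeeding: of 5 genes 1 rose and 2 fell as the mean of both genotypes, with a median change of 0.030 beside 0.0060 over all tested genes. Of all tested genes 25.6% were called in this contrast. Tbl1xr1, which encodes one of a pair of related exchange-factor subunits, fell by 0.81 (SE 0.055, edgeR adjusted p = 4.1e-12). It ran from 50.8 to 69.8 CPM in fasted WT, 55.7 to 70.7 in fasted K556R, 30.1 to 38.2 in refed WT and 27.1 to 40.8 in refed K556R livers. No refed library reached the lowest fasted one in either genotype, and the change was -0.82 in batch 1 alone and -0.80 in batch 2 alone. Its relative Tbl1x rose by 0.31 (SE 0.054, adjusted p = 6.3e-05), at 0.45 in batch 1 alone and 0.16 in batch 2 alone (adjusted p = 0.218). Ncor1 fell by 0.26, as given above. Gps2 stood at 0.087 (adjusted p = 0.250) and Hdac3 at 0.030. Between genotypes 0 of the 5 genes were called as the mean of both states by edgeR and 0 by DESeq2, with 1 (Hdac3) at an unadjusted p below 0.05. The shares over all genes were 1.24%, 2.73% and 14.7%.

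**Figure D5:**
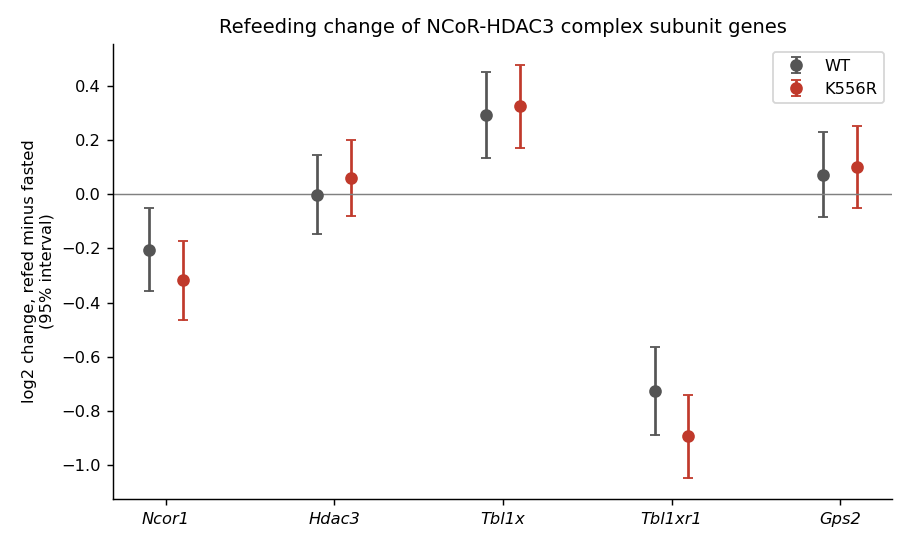
Refeeding change (log2, refed minus fasted, with 95% interval) of 5 NCoR-HDAC3 complex genes in WT (grey) and K556R (red) livers. In both genotypes the interval of Tbl1xr1 lies below 0 and that of Tbl1x above 0, while the intervals of Hdac3 and Gps2 include 0.

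Of 19 genes of the LSD1-CoREST and NuRD complexes, 18 were tested, and 4 rose and 2 fell on refeeding (median 0.042). Over all tested genes 25.6% were called in this contrast, with a median of 0.0060. Chd4, the NuRD remodelling ATPase, fell by 0.24 (edgeR adjusted p = 0.00012). Hdac2 rose by 0.19 (adjusted p = 0.0015), Gatad2a by 0.16 (adjusted p = 0.0058) and Mta2 by 0.12 (adjusted p = 0.0071). Kdm1a itself, at 0.012, was not called. Mbd3 also rose and Gatad2b also fell. Between genotypes, as the mean of both states, 0 were called by edgeR, with 5 at an unadjusted p below 0.05, and DESeq2 called 1, Gatad2b. The shares over all genes were 1.24%, 14.7% and 2.73%.

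Among 9 relatives and rivals of the receptors 6 were tested, and 4 fell on refeeding (median -0.39), where 25.6% of all tested genes were called (median 0.0060). The REV-ERB genes Nr1d2 and Nr1d1, whose products repress through the NCoR-HDAC3 complex, fell by 0.67 (edgeR adjusted p = 0.00048) and 0.62 (adjusted p = 0.0043). Esrrg, a relative of Esrra, fell by 0.49 (adjusted p = 0.0020), and Prox2, the one relative of Prox1, by 0.30 (adjusted p = 0.042).

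Of 9 receptor coactivator genes 1 rose and 3 fell on refeeding (median -0.12), beside 25.6% of all tested genes called (median 0.0060). Ppargc1b and Ppargc1a, the genes of PGC-1 coactivators that partner ERR-alpha, fell by 0.85 (SE 0.095, edgeR adjusted p = 6.9e-08) and 0.57 (SE 0.108, adjusted p = 0.00018). In batch 2 alone Ppargc1a was at -0.32 (adjusted p = 0.118). Ncoa2 fell by 0.22 (adjusted p = 0.0031) and Pprc1 rose by 0.30 (adjusted p = 0.0086). Of the 4 receptor genes Hnf4a alone was called in this contrast.

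The called targets of HNF4A, ERR-alpha and RORA went both ways on refeeding, and the called targets of LRH-1 all fell. The counts of called targets stand beside 25.6% of all tested genes called in this contrast (median 0.0060). Of 10 HNF4A targets 1 fell and 1 rose (median 0.024): Pck1, the gluconeogenic enzyme, by -1.59 (SE 0.144, edgeR adjusted p = 1.6e-09), and Mttp, which loads lipid onto apolipoprotein B, by 0.14 (adjusted p = 0.014). Of 8 LRH-1 targets 4 fell (median -0.22). Scarb1, the HDL receptor, fell by 0.39 (adjusted p = 2.7e-06), Plk3 by 1.20 (adjusted p = 3.0e-05) and Abcg8, which forms a sterol exporter with Abcg5, by 0.51 (adjusted p = 4.1e-05), and Abcg5 by 0.19 (adjusted p = 0.040). Of 8 ERR-alpha targets 2 rose and 1 fell (median -0.0049): Idh3a rose by 0.52 and Cycs by 0.23, and Acadm, a fatty acid dehydrogenase, fell by 0.31. Of 10 RORA targets 3 rose and 4 fell (median 0.077), among them the clock genes Cry1 (0.38), Nfil3 (-0.31), Nr1d2 (-0.67) and Arntl (0.36). Textbook targets of a receptor answer to many other factors, and the lists say nothing of the receptor's activity.

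Between genotypes 0 of the 36 genes of the 4 target lists were called by edgeR as the mean of both states, and 9 had an unadjusted p below 0.05, as did 14.7% of all genes. The medians were -0.045 for HNF4A targets, -0.17 for LRH-1 targets (6 of 8 below 0), -0.10 for ERR-alpha targets (6 of 8 below 0) and 0.065 for RORA targets (7 of 10 above 0), beside 0.0022 over all tested genes. DESeq2 called 5 of them, all lower in K556R livers, where it called 2.73% of all genes (426, of which 178 were higher). Of the ERR-alpha targets, Fh1, a Krebs cycle enzyme, stood at -0.14 by edgeR (adjusted p = 0.080) and -0.14 by DESeq2 (adjusted p = 0.030). Sdha, a subunit of respiratory complex II, stood at -0.11 by edgeR (adjusted p = 0.090) and Atp5b, of the ATP synthase, at -0.11 (adjusted p = 0.107), with DESeq2 adjusted p-values of 0.016 and 0.020. Of the LRH-1 targets, Scarb1 stood at -0.18 by edgeR (adjusted p = 0.084; DESeq2 adjusted p = 0.040). Cyp8b1, the sterol 12-alpha-hydroxylase of bile acid synthesis, stood at -0.32 (edgeR adjusted p = 0.095; DESeq2 adjusted p = 0.046). These calls rest on the choice of tool.

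Genes whose level ran most like that of a member over the 29 libraries, after batch means were removed, were sought among 10987 genes. Libraries share depth and the length and GC contrasts above, so a high correlation r here is a description of these libraries. Group means were not removed, so differences between feeding states and genotypes also enter r. For Prox1 the nearest 3 were Topors (r = 0.771), Rsbn1 (r = 0.770) and Ocln (r = 0.763). For Hnf4a they were Slc39a14 (r = 0.91), Chd7 (r = 0.89) and Mapk14 (r = 0.88), and for Nr5a2 they were Nfib (r = 0.88), Cyp2j5 (r = 0.84) and Slc31a1 (r = 0.84). Esrra ran with Mrps26 (r = 0.86), Dda1 (r = 0.84) and Aes (r = 0.83), and Rora with Jmjd1c (r = 0.79) and Ids (r = 0.79). Hdac3 ran with Arpc3 (r = 0.81), Chchd6 (r = 0.79) and Taldo1 (r = 0.79). Ncor1 had the closest companions, Il6st (r = 0.946) and Mtus1 (r = 0.945), and Kdm1a the loosest, with Rbm10 (r = 0.67), Pygo2 (r = 0.63) and Ftsj1 (r = 0.62). No member was among the 3 nearest genes of another.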

How the data were processed

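The authors deposited 1 table of raw read counts, with a row per gene and 29 liver libraries as columns. Per the submitters' processing notes the tools named are STAR, HTSeq, TopHat, STAR-Fusion, DESeq2 and edgeR, with build mm10; their roles, the annotation release and the strand setting are not given in the sources used here. RNA was poly-A selected, per the labels' protocols. Of 54532 gene identifiers 54495 matched GENCODE M21; the 37 others held 0.0009% of counts.

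Counts were filtered with filterByExpr (minimum count 10, minimum total 15), leaving 15603 genes with 99.92% of counts, and scaled by TMM. All libraries entered an edgeR 4.0.16 quasi-likelihood fit (R 4.3.3) of the 4 groups and the batch, from which 7 contrasts were read. A call is a Benjamini-Hochberg adjusted p below 0.05. SE values come from the F statistic. The procedure was tested on simulated data. Log2 CPM uses a prior count of 2. DESeq2 1.42.0 and other settings were alternatives.

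The members and the gene lists were chosen with earlier results of these data known. All 8 members are named; of each list, up to 4 genes with the smallest p in the mean genotype or mean refeeding contrast, called genes first; for likeness, the 3 genes with the highest correlation. Other called list genes are named to complete a count. Some genes of the lists and of the likeness search are not reported here, and list counts and medians leave them out. The libraries of a group differed beyond counting error in all 92 pairs (chi-square per degree of freedom 7.50 to 107). No library was left out. PCR copies cannot be told from molecules, so depth (14385218 to 27278251 counts per library) bounds counting error only. Marker lists for sinusoidal and vascular endothelium (summed 111 to 209 CPM), cholangiocytes (42.6 to 176), macrophages (83.8 to 367), stellate cells (168 to 411), lymphocytes (11.6 to 33.5) and adipocytes (0.991 to 28.8 CPM, Lep at 0 throughout) overlapped between all 4 groups over both batches; within batch 2 the cholangiocyte and hepatocyte sums of K556R livers did not overlap between feeding states.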

Additional observations from a re-analysis of the deposited data

Results flagged for a closer look

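In 32 groups of libraries (8 members in 4 groups) the highest or lowest value was compared with the rest of its group by Dixon's ratio of the gap to the range, and 2 passed its 95% limit, where chance gives about 1 in 20. Hnf4a in the first refed WT library of batch 2 was at 678 CPM, with a median of 553 CPM in the other 5 (ratio 0.655). Hdac3 in the second refed K556R library of batch 2 was at 52.2 CPM, with a median of 43.3 CPM in the other 7 (ratio 0.532). Without the first library Hnf4a on refeeding in WT livers passed the test at -0.21 (edgeR adjusted p = 0.024).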

How the results depend on the processing

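Other scaling, DESeq2, no filter on low counts and no batch term kept the number of called members in every contrast, and none of 2184 recomputed values of single members turned a called change round. Of these, 2057 kept their direction and side of the threshold, 7 lost a call, 7 gained one and 113 changed sign without a call. With batch 1 alone the members called on refeeding dropped from 3 to 1 in K556R livers and from 3 to 1 for the mean of both genotypes. In WT livers the count rose from 0 to 1 with batch 2 alone and with the GC contrast as a term (Ncor1 at -0.21, edgeR adjusted p = 0.049). Leaving out 1 library gave 0 to 1 in WT livers: Ncor1 was called without the third fasted WT library of batch 1 or the first refed WT library of batch 1, and Hnf4a without the first refed WT library of batch 2. Prox1, Hnf4a and Ncor1 kept their calls in all 29 such fits, in K556R livers (adjusted p up to 0.035) and for the mean (up to 0.045). With the repeat number as a replicate block the counts stayed at 3 in K556R livers, 3 for the mean of both genotypes and 0 in WT livers and in the genotype contrasts; the block changed no member's call. The deviations of same-numbered libraries from the fit had a correlation over 0.1 in 7 of 40 pairs (median -0.109). Pairs with different numbers were not computed, so these values cannot show whether same-numbered libraries deviate together. No label says that a number pairs animals. Counts over all genes between genotypes moved more. For fasted livers (16 genes) they were 89 by DESeq2, 45 without the filter, 33 in batch 1 alone, 0 in batch 2 alone, 2 without the batch term, with the block, or with the length or GC contrast, and 2 to 46 with 1 library left out. For refed livers (0 genes) they were 44 by DESeq2, 10 without the filter, 5 and 7 in batches 1 and 2 alone, and 0 to 20 with 1 library left out, 20 being without the fourth refed K556R library of batch 1. For the mean (194 genes) they were 426 by DESeq2, 98 without the batch term, 125 and 0 in batches 1 and 2 alone, 92 with the block, 123 with the length contrast, and 116 to 309 with 1 library left out. On refeeding, batch 1 alone called 846 genes in WT, 1497 in K556R livers and 2652 for the mean, and batch 2 alone 592 in WT livers, beside 1667, 2397 and 4001. In batch 2 alone Hnf4a lost its refeeding call in K556R livers (edgeR adjusted p = 0.060). It also lost that for the mean of both genotypes (adjusted p = 0.127). Nr5a2 (adjusted p = 0.019) and Hdac3 (adjusted p = 0.044) gained a call for that mean. Batch, length or GC fits thus moved Ncor1, Prox1, Hdac3, Hnf4a and Nr5a2 on refeeding. The GC fit also moved the genotype differences of Esrra and Rora. The causes were not tested.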
